A study of Mus musculus with 7 samples.

Results

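The genes described here are 8 genes of forebrain cholinergic neurons: *Chat*, *Slc5a7*, *Slc18a3*, *Ache*, *Isl1*, *Gbx2*, *Ecel1* and *Slc10a4*. They were taken by symbol from the 47729 genes of a count table, and all 8 were found. Of these, 7 were among the 19684 genes that reached 10 counts in 3 or more libraries and were tested, and *Gbx2* fell below that minimum. The libraries were made from whole forebrain of mice at postnatal day 15 (P15). *Lhx6* encodes a LIM homeodomain transcription factor of interneurons from the medial ganglionic eminence (MGE), and the comparison asks how forebrain RNA differs without it. Control mice were *Lhx6*+/- (4 libraries) and mutant mice were *Lhx6*-/- (3 libraries), all on the F1(C57BL/6 X 129Sv) background. The mutant allele was Lhx6tm2Vpa, carried in 1 copy by the controls and in 2 by the mutants, so no group was free of it, and it was mutated in every cell rather than in one cell type. Each library pooled 2 animals, so that the p-values measure the spread between pools and not between single mice.

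Acetylcholine is made from choline and acetyl coenzyme A, packed into vesicles, and broken down in the synaptic cleft to choline, which is taken up again. In the forebrain its main sources are the large interneurons of the striatum and the projection neurons of the basal forebrain, which reach the cortex and hippocampus. Both kinds descend largely from progenitors of the ventral telencephalon that express *Nkx2-1*, as do the interneurons that express *Lhx6*, and depend on LIM homeodomain factors such as *Lhx8* and *Isl1*.

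The 7 libraries held between 32556183 and 38068931 counts, and a gene listed at 0 in the smallest may still have had 3 counts, or 0.0921 CPM (counts scaled to library size; counting error only). Columns of the table carried a genotype and a library number, 2, 3, 10 and 11 for controls and 5, 12 and 13 for mutants, and nothing that ties them to a pool's sex or RNA quality. Libraries are named here by these numbers. Because both genotypes occur among libraries 2, 3 and 5 and among libraries 10 to 13, differences are also given within these runs of numbers. *Lhx6* had 615, 522, 476 and 522 normalized counts (counts scaled to the mean library size) in controls 2, 3, 10 and 11, and 70.9, 76.6 and 70.1 in mutants 5, 12 and 13 and so was lower in the libraries labelled mutant.

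Among the cholinergic genes, *Ecel1* and *Ache* rose in the mutants, by 3.57-fold and 1.79-fold, while *Chat*, *Slc5a7*, *Slc18a3*, *Isl1* and *Slc10a4* did not pass the test. With edgeR's quasi-likelihood test and Benjamini-Hochberg adjustment over all tested genes at 0.05, 2 of 7 tested members (28.6%) were higher and 0 were lower. Over all 19684 tested genes, 4.85% were called, 2.97% higher and 1.87% lower. The 3 mutant libraries lay above all 4 controls for 2 of the 7 members, against 10.7% of all tested genes, and below them for 0, against 9.00%. The median log2 fold change (mutant over control) of the 7 members was 0.68 and that of all tested genes was -0.01. All 7 estimates were positive, against 9404 of the 19684 tested genes. The sign of *Chat* reversed in 5 alternative fits and that of *Slc5a7* in 1, so a rise of all 7 was not established. At an unadjusted p of 0.05 or less, 3 members were higher (*Slc18a3* besides the called pair) and 0 lower. The share of all tested genes at this unadjusted threshold is not given here, so counts at it, here and below, have no baseline. DESeq2 and limma-voom also called 2 higher and 0 lower, and a fit with the run of numbers as covariate called 3, *Slc18a3* among them. Over all tested genes DESeq2 called 1731, limma-voom 963 and the covariate fit 2205, against 954 in the main fit. Neither *Ache* nor *Ecel1* is restricted to cholinergic cells, and whether their changes differed from those of the other members was not tested. In RNA of whole tissue, a change in the number of cells of a type and a change in RNA per cell cannot be told apart.

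**Figure D1:**
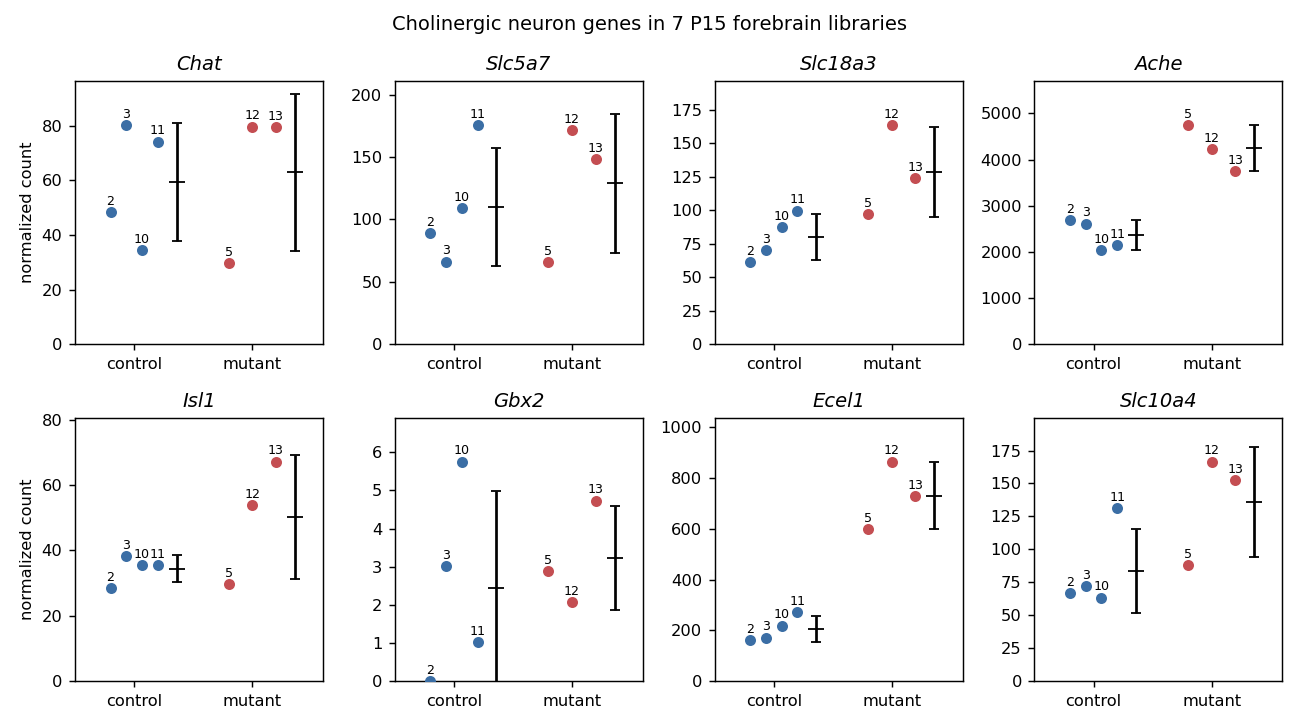
Normalized counts of each of the 8 genes (vertical axes start at 0 and differ between panels) in 4 control libraries (blue) and 3 mutant libraries (red), numbered as in the text, with the mean and SD of each genotype in black (the lower SD bar of *Gbx2* in controls is cut at 0). For *Ache* and *Ecel1* the 3 mutant libraries sit above all controls, and for the other genes the genotypes overlap.

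Levels were compared between genes per length, as CPM per kilobase of exon. *Ache* was the most abundant, at 14.4 ± 1.96 in controls (SD, n = 4) and 25.7 ± 3.03 in mutants (SD, n = 3). *Ecel1* followed with 1.64 ± 0.407 and 5.86 ± 1.07, then *Slc10a4* with 1.11 ± 0.426 and 1.81 ± 0.557 and *Slc18a3* with 0.926 ± 0.199 and 1.49 ± 0.390. *Slc5a7* had 0.596 ± 0.256 and 0.698 ± 0.301, and *Chat* had 0.592 ± 0.216 and 0.629 ± 0.288. The transcription factors were lowest, *Isl1* at 0.244 ± 0.0293 and 0.356 ± 0.135 and *Gbx2* at 0.0315 ± 0.0327 and 0.0416 ± 0.0176. The order was the same in both genotypes. Among controls, the ranges of neighbours in this order were apart between *Ache* and *Ecel1*, between *Chat* and *Isl1* and between *Isl1* and *Gbx2*, and overlapped for the other neighbours.

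**Figure D2:**
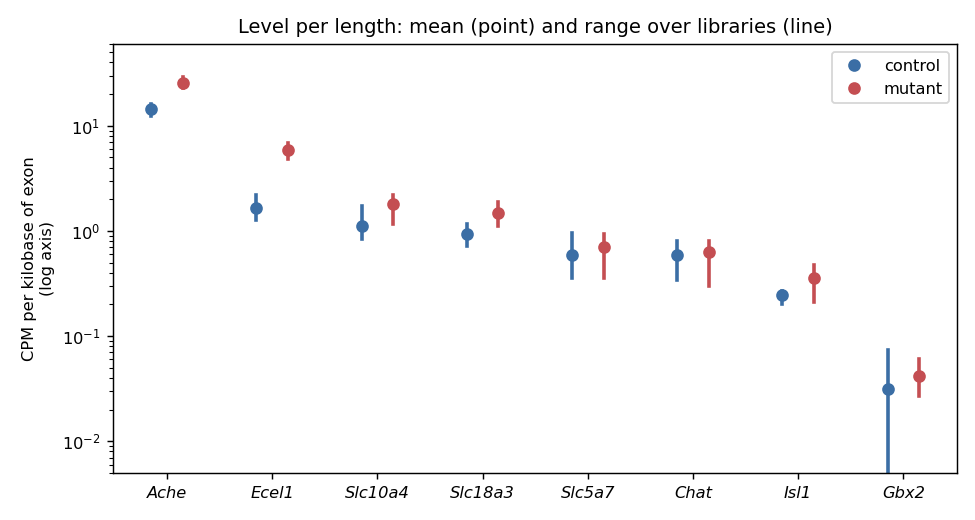
Level of each gene per length (CPM per kilobase of exon, log axis) in controls (blue) and mutants (red), with points for means and lines for the range over 4 and 3 libraries. Control library 2 had 0 counts of *Gbx2*, so that line runs to the bottom of the axis, and *Ache* lies far above the other genes in both genotypes.

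*Chat* and *Slc18a3* form the cholinergic gene locus. *Chat* encodes choline acetyltransferase, which makes acetylcholine, and *Slc18a3* encodes the vesicular transporter that loads it. In the deposited annotation (GRCm38), *Chat* (ENSMUSG00000021919) spans chr14:32408203-32465909 on the minus strand with 16 exons. The single exon of *Slc18a3* (ENSMUSG00000100241, chr14:32462438-32464850, same strand) lies inside intron 1 of *Chat* (chr14:32460914-32465806), with 0 shared exon bases. Their upstream sequences are shown because the 2 genes share a locus and have separate annotated starts. They are the 250 bases before each start in RefSeq (GRCm38.p6), chr14:32465910-32466159 for *Chat* and chr14:32464851-32465100 for *Slc18a3*, both minus strand, with an E-box (CACGTG) in *Chat* and GC boxes (GGGCGG, here on the other strand) in *Slc18a3* in capitals.
Chat: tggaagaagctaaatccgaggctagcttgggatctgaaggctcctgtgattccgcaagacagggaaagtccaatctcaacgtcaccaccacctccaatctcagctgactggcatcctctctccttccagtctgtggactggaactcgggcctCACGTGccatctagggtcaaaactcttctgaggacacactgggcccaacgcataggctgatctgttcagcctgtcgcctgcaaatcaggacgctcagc
Slc18a3: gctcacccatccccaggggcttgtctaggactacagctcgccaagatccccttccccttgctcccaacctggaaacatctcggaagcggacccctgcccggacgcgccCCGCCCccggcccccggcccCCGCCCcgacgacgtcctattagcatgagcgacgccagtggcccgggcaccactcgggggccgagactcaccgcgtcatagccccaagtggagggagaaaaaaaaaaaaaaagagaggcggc

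*Chat* had 48.3, 80.3, 34.5 and 74.2 normalized counts in controls 2, 3, 10 and 11. In mutants 5, 12 and 13 it had 29.7, 79.7 and 79.5. Each genotype held both high and low libraries, mutant 5 was the lowest of all 7, and control 3 the highest. The means were 59.3 ± 21.6 (SD, n = 4) and 63.0 ± 28.8 (SD, n = 3), a log2 fold change of 0.09 (SE 0.404, edgeR adjusted p = 0.948). The 95% interval ran from -0.83 to 1.00, and changes inside it could not be told from none in these libraries. Counts were between 31 and 84, for which counting alone gives an SD of 10.9% to 18.0%. The direction was not stable, since the log2 difference was -1.11 in the run of 2, 3 and 5 and 0.55 in that of 10 to 13, and without control 2, control 10, mutant 12 or mutant 13 it was 0.00, -0.10, -0.12 and -0.12.

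*Slc18a3* had 61.4, 70.3, 87.3 and 99.6 normalized counts in controls 2, 3, 10 and 11. Mutants 5, 12 and 13 had 96.8, 164 and 124. Mutants 12 and 13 lay above all controls, while mutant 5 lay just below control 11. The means were 79.7 ± 17.1 (SD, n = 4) and 128 ± 33.6 (SD, n = 3), a log2 fold change of 0.68 (SE 0.235, 95% interval 0.15 to 1.22) with an unadjusted edgeR p of 0.0181 and an adjusted p of 0.162. When the run (libraries 2, 3 and 5 against 10 to 13) entered the model as a covariate, the adjusted p from edgeR was 0.0456 for a log2 fold change of 0.59, the one alternative in which the gene passed. Within the runs the log2 differences were 0.55 and 0.62.

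Per length, *Slc18a3* exceeded *Chat* in every library. The ratio of the pair was 1.48, 1.02, 2.94 and 1.56 in controls 2, 3, 10 and 11, and 3.79, 2.39 and 1.82 in mutants 5, 12 and 13. It was highest in mutant 5, the library with the least *Chat*, and the genotypes overlapped. The counts behind it had counting SDs of 7.96% to 13.4% for *Slc18a3* and 10.9% to 18.0% for *Chat*, and the ratio was not tested.

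*Slc5a7* (ENSMUSG00000023945, chr17:54273594-54299034, minus strand, 9 exons) encodes the high-affinity choline transporter, which returns choline to the nerve terminal. Its normalized counts were 88.8, 66.3, 109 and 176 in controls 2, 3, 10 and 11 and 66.1, 172 and 149 in mutants 5, 12 and 13. The genotypes overlapped over nearly their whole range, with the lowest value in mutant 5 and the highest in control 11. The means were 110 ± 47.2 (SD, n = 4) and 129 ± 55.6 (SD, n = 3), a log2 fold change of 0.23 (SE 0.390, 95% interval -0.66 to 1.11, edgeR adjusted p = 0.834). The log2 differences in the runs were -0.23 and 0.17, and without mutant 12 the fitted value was -0.03.

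*Slc10a4* (ENSMUSG00000029219, chr5:73006883-73012955, plus strand) encodes an orphan transporter of synaptic vesicles in cholinergic and monoaminergic neurons. It had 66.9, 72.3, 63.3 and 131 normalized counts in controls 2, 3, 10 and 11. In mutants 5, 12 and 13 it had 88.1, 167 and 152. Only control 11 overlapped the mutant range, and it lay far from the other controls. The means were 83.4 ± 32.02 (SD, n = 4) and 136 ± 41.8 (SD, n = 3), a log2 fold change of 0.70 (SE 0.313, 95% interval -0.01 to 1.41, edgeR adjusted p = 0.283). The log2 differences within the runs were 0.34 and 0.71.

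*Ache* (ENSMUSG00000023328) encodes acetylcholinesterase, which breaks down the transmitter and is also made by neurons that respond to it. It spans chr5:137287519-137294466 on the plus strand, with 6 exons and 9 transcripts. The stretch before its RefSeq start is shown because the gene rose, with 4 GC boxes (GGGCGG, either strand; the last pair overlaps) in capitals. It is chr5:137288058-137288253 (GRCm38.p6, plus strand), which lies downstream of the earliest annotated start and outside the gene's annotated exons.
Ache: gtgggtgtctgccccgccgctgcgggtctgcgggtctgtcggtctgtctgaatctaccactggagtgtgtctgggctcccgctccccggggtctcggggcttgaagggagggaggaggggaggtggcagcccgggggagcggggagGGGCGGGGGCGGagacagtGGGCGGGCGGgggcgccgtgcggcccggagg

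*Ache* had 2683, 2612, 2042 and 2149 normalized counts in controls 2, 3, 10 and 11. Mutants 5, 12 and 13 had 4749, 4223 and 3751. All mutants lay above all controls, and mutant 5, the lowest of the mutants for each other tested member, was the highest. The means were 2371 ± 323 (SD, n = 4) and 4241 ± 499.7 (SD, n = 3), a log2 fold change of 0.84 (SE 0.124, 95% interval 0.56 to 1.12, edgeR adjusted p = 0.00771). Within the runs the log2 differences were 0.84 and 0.93. The gene stayed called with each library left out (edgeR adjusted p from 0.0120 to 0.0376). Its exons share 98 bases (2.12%) with *Gm42456* on the other strand.

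*Ecel1* (ENSMUSG00000026247) encodes a neuronal membrane metallopeptidase related to endothelin-converting enzymes, known from injured neurons and motor nerve development. It spans chr1:87147655-87156521 on the minus strand, with 20 exons. The 85 bases shown, chr1:87156522-87156606 (GRCm38.p6, minus strand), are the part of its RefSeq upstream sequence that lies outside its annotated exons. They lie directly before the gene's start in the deposited annotation, and not directly before its RefSeq start. They are shown as those of the gene that rose most among the 8, and they hold none of the motifs searched.
Ecel1: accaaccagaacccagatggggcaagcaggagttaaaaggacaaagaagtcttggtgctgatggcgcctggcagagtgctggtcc

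*Ecel1* had 160, 171, 218 and 271 normalized counts in controls 2, 3, 10 and 11. Mutants 5, 12 and 13 had 599, 865 and 730. The lowest mutant library had more than the highest control by a wide margin. The means were 205 ± 50.9 (SD, n = 4) and 731 ± 133 (SD, n = 3), a log2 fold change of 1.83 (SE 0.204, 95% interval 1.37 to 2.30, edgeR adjusted p = 0.00225). The log2 differences within the runs were 1.86 and 1.71, and the edgeR adjusted p with each library left out ran from 0.00292 to 0.0137.

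Over the 250 bases before the RefSeq starts of all 8 members and of 32851 promoters in all, 4 motifs were counted on both strands. The GC box (GGGCGG) was in 4 members (*Gbx2*, *Slc10a4*, *Ache* and *Slc18a3*) and in 32.7% of all promoters. The E-box (CACGTG) was in 3 members (*Gbx2*, *Ache* and *Chat*), in *Ache* outside the stretch printed, and in 6.02% of all. The cyclic AMP response element (TGACGTCA), in 1.55% of all promoters, and the homeodomain core TAATTA, in 4.84%, were in 0 of the 8. A match is a description of letters and not of a bound site.

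*Isl1* (ENSMUSG00000042258, chr13:116298281-116309689, minus strand) encodes the LIM homeodomain factor that striatal cholinergic interneurons require, and it is also expressed in striatal projection neurons of the direct pathway as they develop. It had 28.5, 38.2, 35.5 and 35.6 normalized counts in controls 2, 3, 10 and 11. In mutants 5, 12 and 13 it had 29.7, 53.8 and 67.2. Mutants 12 and 13 were above every control, and mutant 5 was near the lowest control. The means were 34.4 ± 4.14 (SD, n = 4) and 50.2 ± 19.0 (SD, n = 3), a log2 fold change of 0.54 (SE 0.292, 95% interval -0.12 to 1.21, edgeR adjusted p = 0.386). The log2 difference was -0.17 in the run of 2, 3 and 5 and 0.77 in the other.

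*Gbx2* (ENSMUSG00000034486, chr1:89927956-89931179, minus strand) encodes a homeodomain factor of a subset of striatal cholinergic interneurons, and of the developing thalamus and the midbrain-hindbrain boundary. It had 0, 3, 6 and 1 counts in controls 2, 3, 10 and 11 and 3, 2 and 5 in mutants 5, 12 and 13. These are at or near the floor of 3 counts, and no difference was detectable at this depth. Fitted without the filter, its log2 fold change was 0.37 (SE 0.992, edgeR adjusted p = 0.918). Of its exon bases, 946 (43.5%) overlap *D130058E05Rik* on the other strand, and whether the counting used strand is not given in the sources used here.

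Mutant 5 was the lowest of the 3 mutants for each tested member except *Ache*. Without it, the log2 fold changes were 0.43 for *Chat*, 0.55 for *Slc5a7*, 0.86 for *Slc18a3*, 0.82 for *Isl1* and 0.94 for *Slc10a4*. The same fit gave edgeR adjusted p-values of 0.602, 0.501, 0.126, 0.152 and 0.184, so that these genes did not pass the test in that fit either. *Ache* and *Ecel1*, at 0.76 and 1.97, remained called.

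Genes of the cholinergic lineage and its trophic support were tested as a list of 11, of which *Lhx8* and *Gal* were called higher, 0 lower and 9 did not pass, with a median log2 fold change of 0.33. *Gal* and *Gbx1* had under 10 counts in every control and reached the minimum for testing only through the mutants, so they had to differ, and their values are given as a description. The counts and the median of this list include them, and are to that extent set by the filter. *Lhx8*, the LIM homeodomain factor of cholinergic fate, had 14.3, 34.1, 19.2 and 21.3 normalized counts in controls 2, 3, 10 and 11 and 49.8, 63.1 and 61.5 in mutants 5, 12 and 13. The mutants lay above the controls, with a log2 fold change of 1.38 (SE 0.301, edgeR adjusted p = 0.0370). This call did not hold without control 2, 10 or 11 or without mutant 5, 12 or 13 (edgeR adjusted p from 0.0692 to 0.149). *Gal*, which encodes the neuropeptide galanin, had 8.77, 8.03, 5.76 and 6.10 in the controls and 61.3, 61.1 and 54.9 in the mutants. Its counts were 6 to 8 in the controls and 58 to 64 in the mutants, with a log2 fold change of 3.03 (SE 0.254). It was too low to be tested with any one mutant library left out. Fitted with no filter on low counts, it had an edgeR adjusted p of 0.000231.

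The other transcription factors of that list were *Nkx2-1*, the MGE and preoptic patterning factor, *Gbx1*, and the zinc finger genes of the septum and ventral forebrain. *Gbx1* went from 7.08 ± 2.39 to 19.9 ± 11.1 normalized counts (SD, n = 4 and 3), a log2 fold change of 1.47 that did not pass the test. *Nkx2-1* went from 29.7 ± 14.6 to 60.7 ± 8.45, a log2 fold change of 1.03 (edgeR adjusted p = 0.191). For *Nkx2-1* the mutant libraries were all above the controls. *Zic1*, *Zic2* and *Zic4* had log2 fold changes of -0.01, 0.15 and 0.33. The neurotrophin receptor gene *Ngfr* had 0.61 (edgeR adjusted p = 0.248), with overlapping genotypes. *Slc17a8*, the vesicular glutamate transporter that striatal cholinergic interneurons also carry, and the dopamine receptor gene *Drd5* had -0.01 and 0.04. Unadjusted p-values of 0.05 or less were found for 5 genes, all higher, with *Gal* and *Gbx1* among them. DESeq2 and limma-voom each called 2 higher (*Lhx8* and *Gal*) and 0 lower. With the run covariate 4 were called higher, *Nkx2-1* (1.27, edgeR adjusted p = 0.0240) and *Ngfr* (0.70, edgeR adjusted p = 0.0300) besides *Lhx8* and *Gal*.

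Genes that handle acetylcholine and choline in general were a list of 8, of which *Colq* rose, 0 fell and 7 did not pass, with a median log2 fold change of 0.01. *Colq* encodes the collagen tail that anchors acetylcholinesterase in the extracellular matrix. It had 66.9, 75.3, 45.1 and 49.8 normalized counts in controls 2, 3, 10 and 11 and 265, 151 and 195 in mutants 5, 12 and 13. The mutants lay above the controls and mutant 5 was the highest, as for *Ache*. The log2 fold change was 1.78 (SE 0.248, edgeR adjusted p = 0.00630, and 0.00794 to 0.0295 with each library left out). Of its exon bases, 199 (5.23%) overlap *Hacl1* on the same strand. *Prima1*, the membrane anchor of acetylcholinesterase in brain, had a log2 fold change of -0.18 (edgeR adjusted p = 0.663), and *Bche*, the related butyrylcholinesterase, had 0.34 (edgeR adjusted p = 0.549).

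The choline and acetyl coenzyme A genes of that list lay near 0. The log2 fold changes were 0.01 for the choline transporter *Slc44a1*, 0.01 for *Pcyt1a*, -0.10 for the ATP citrate lyase *Acly* and 0.12 for the vesicular proton pump subunit *Atp6v0a1*. The choline kinase *Chka* had all mutants below all controls, at -0.23 (edgeR adjusted p = 0.193). At an unadjusted p of 0.05 or less 1 gene was higher and 1 lower, and DESeq2 and limma-voom each called 1 higher and 0 lower.

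Of 17 acetylcholine receptor and chaperone genes, *Chrnb3* rose, *Chrna4* fell and 15 did not pass, with a median log2 fold change of -0.07. *Chrnb3*, a nicotinic subunit best known from midbrain dopamine neurons and the visual system, had 27.4, 69.3, 61.4 and 44.7 normalized counts in controls 2, 3, 10 and 11 and 327, 395 and 398 in mutants 5, 12 and 13. The genotypes were far apart, with a log2 fold change of 2.87 (SE 0.271, edgeR adjusted p = 0.000981). *Chrna4*, a subunit of the main high-affinity nicotinic receptor of the brain, went from 1853 ± 214 (SD, n = 4) to 1211 ± 43.0 (SD, n = 3). Its log2 fold change was -0.61 (SE 0.103, edgeR adjusted p = 0.0128), with adjusted p-values of 0.0553, 0.0534 and 0.0757 without mutant 5, 12 or 13. Its partner *Chrnb2* had 0.01.

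The muscarinic receptor genes *Chrm1* to *Chrm5* had log2 fold changes of -0.20, -0.45, -0.41, -0.55 and 0.00. *Chrm2*, the gene of the main autoreceptor of cholinergic terminals, had all mutants below all controls (edgeR adjusted p = 0.0744). Of the other nicotinic subunits, *Chrna2*, known from deep-layer somatostatin interneurons, had -1.33 (edgeR adjusted p = 0.0862). *Chrna3*, *Chrna5*, *Chrna6*, *Chrna7* and *Chrnb4* had -0.43, -0.41, 0.28, 0.40 and 0.70. The receptor modulator *Lynx1* had 0.30 (edgeR adjusted p = 0.0862), and the chaperones *Ric3* and *Tmem35a* had 0.06 and -0.07. At an unadjusted p of 0.05 or less 2 genes were higher and 7 lower, with no share of all tested genes to compare. DESeq2 called 2 higher and 3 lower, and limma-voom 1 higher and 1 lower. Over all tested genes DESeq2 called 1002 higher and 729 lower, and the fit with the run covariate 1213 and 992. With the run covariate 2 were called higher and 5 lower, which added *Lynx1* (0.30), *Chrm2* (-0.47), *Chrm3* (-0.46), *Chrm4* (-0.64) and *Chrna2* (-1.41), with edgeR adjusted p-values of 0.0355, 0.0171, 0.00586, 0.0138 and 0.0242.

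**Figure D3:**
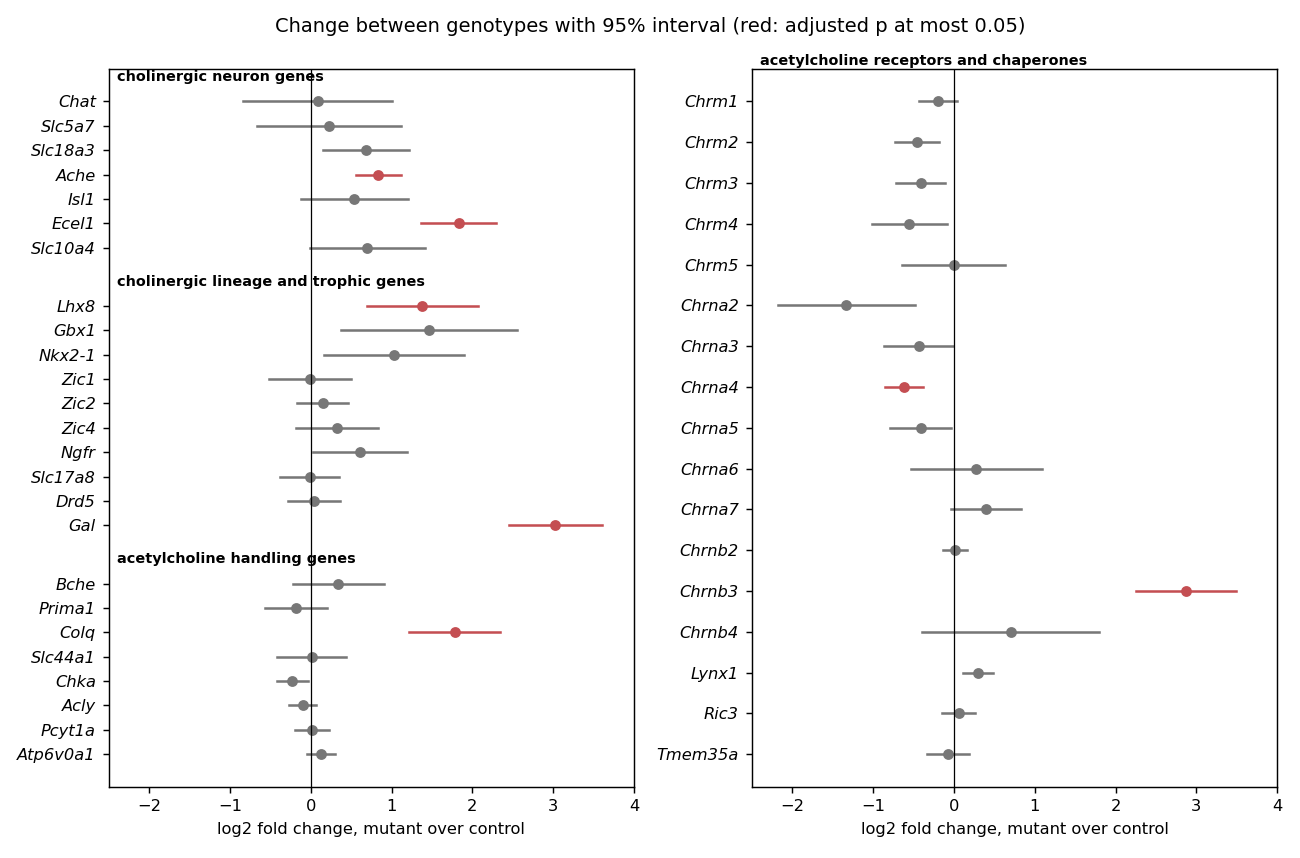
Log2 fold change between genotypes (mutant over control) with its 95% interval for the 7 tested members, 10 lineage and trophic genes and 8 acetylcholine handling genes (left) and 17 receptor and chaperone genes (right), with genes past an adjusted p of 0.05 in red. *Ache*, *Ecel1*, *Lhx8*, *Gal* (tested only through its level in mutants), *Colq* and *Chrnb3* lie to the right and *Chrna4* to the left, and the interval of *Chat* reaches from -0.83 to 1.00.

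The genes whose profile over the 7 libraries was most like that of *Chat* were sought among 13444 tested genes with a mean of at least 100 normalized counts. The measure was the root mean square difference of log2 normalized counts, each centred on its mean. The 5 nearest were *Mtap* (0.327), *Cd4* (0.328), *Adora2a* (0.343), *Drd1* (0.349) and *Cyp2s1* (0.359), against 0.564 for the profile of *Chat* itself about its mean. *Adora2a* and *Drd1* encode the adenosine and dopamine receptors of striatal projection neurons. For *Isl1*, whose own value was 0.409, the nearest were *Trim12c* (0.135), *Klhl13* (0.173), *Slc35d3* (0.183), *Ap1s2* (0.186) and *Ly6a* (0.187). All points share the same 7 libraries, so these values describe the libraries and carry no test.

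The 3 libraries with the least *Chat* were controls 2 and 10 and mutant 5, and the same 3 were the lowest for *Drd1* and *Adora2a*. Both genes had been picked for a profile like that of *Chat*, so this sharing follows in part from the selection. *Drd1* had 555, 735, 604 and 787 normalized counts in controls 2, 3, 10 and 11 and 557, 885 and 883 in mutants 5, 12 and 13. *Adora2a* had 826, 1168, 805 and 1424 in the controls and 980, 1773 and 1473 in the mutants. Among 12 markers of striatal projection neurons, 2 (*Drd1* and *Adora2a*) shared all 3 of these low libraries with *Chat* and 9 shared 2 of them. This tally has no share of all tested genes beside it and does not show a link to the striatum. The summed level of the 12 markers ran from 18637 to 26166 in controls and from 24636 to 33768 in mutants, so the ranges overlapped. *Penk* (log2 fold change 1.196, edgeR adjusted p = 0.0130, and 0.0595 and 0.0579 without mutant 12 or 13) and *Tac1* (0.83) were called higher and 0 lower by edgeR, DESeq2 and limma-voom (0 lower also at an unadjusted p of 0.05 or less), and the median was 0.28. *Tac1* had an edgeR adjusted p of 0.0333, and 0.0685, 0.0894, 0.129 and 0.151 without control 2 or 10 or mutant 12 or 13. The part of striatal content in the values of the cholinergic genes was not tested.

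**Figure D4:**
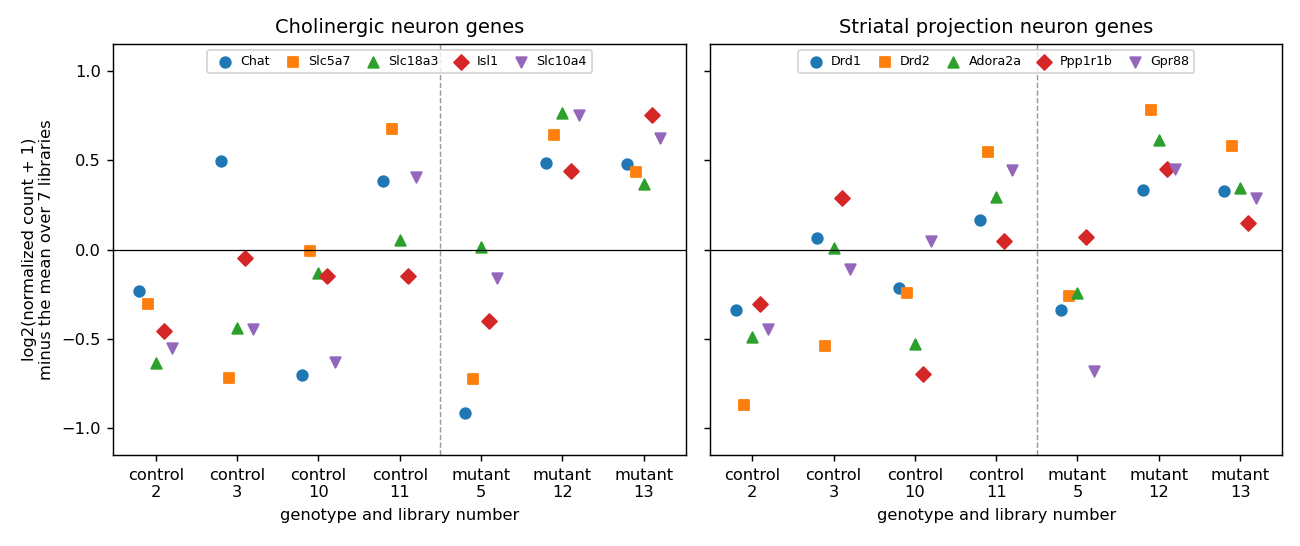
Log2 normalized count (pseudocount 1) of 5 cholinergic genes (left) and the first 5 listed striatal projection neuron markers (right), each centred on its mean over the 7 libraries, with the dashed line between controls and mutants. In both panels mutants 12 and 13 lie above 0 and control 2 below, while mutant 5 lies below the other mutants for each gene. The striatal markers not shown did not all follow this, and *Pdyn* had its lowest values in mutants 13 and 12.

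Markers of other cells in or near the dissection were summed in the same way. Of 7 tested habenula genes *Gpr151* was higher (21.0 ± 2.91 to 55.1 ± 3.82 normalized counts, SD, n = 4 and 3, log2 fold change 1.38, edgeR adjusted p = 0.00940) and 0 were lower with edgeR or limma-voom. DESeq2 and the fit with the run covariate also called *Nwd2* lower (-0.38, all mutants below all controls), and 2 genes were lower at an unadjusted p of 0.05 or less. The habenula sums ran from 3135 to 3801 in controls and from 2856 to 3154 in mutants. Of 6 tested monoamine neuron genes *Th* was higher (54.5 ± 9.07 to 389 ± 102, log2 fold change 2.83, edgeR adjusted p = 0.000440), with sums of 592 to 779 and 978 to 1130 (DESeq2 called *Tph2* higher too, at 0.78), while *Slc6a3* of dopamine neurons had 7.97 ± 2.96 and 14.5 ± 7.95. Of 10 thalamus genes 0 were called by edgeR or limma-voom. DESeq2 and the fit with the run covariate each called 1, *Synpo2*, higher. At an unadjusted p of 0.05 or less there were 2, and the sums were 8601 to 10380 and 8879 to 8949. Of 12 hypothalamus genes 4 were tested and 0 called by edgeR, DESeq2 or limma-voom (0 at an unadjusted p of 0.05 or less), with sums of 103 to 191 and 148 to 293. The fit with the run covariate called *Trh* higher. *Avp*, also among the 4, reached the minimum for testing only through the mutants. Of 11 motor neuron and hindbrain genes 1 was tested, with 0 called by each of the 3 tools (0 at an unadjusted p of 0.05 or less) and sums of 28.5 to 58.5 and 22.7 to 33.5. The tested gene, *En2*, had 16 to 28 counts in every library, *En1* had 37 counts in control 10 and at most 5 elsewhere, and the other genes had at most 8 in any library. *Mnx1* was at 0 in every library, and *Hoxb2*, *Hoxb3* and *Hoxa2* at 3 counts or fewer. The part of these other cells in the changes of *Ache* and *Ecel1* was not tested.

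The sums of 6 cortex genes ran from 77177 to 88467 in controls and from 88153 to 106368 in mutants. Most of each sum was *Slc17a7* (62495 to 73436 in controls and 73564 to 90141 in mutants). Of the 6 log2 fold changes 3 were positive and 3 negative. No reference level was used, so the sums do not test the forebrain label. Among genes of MGE-derived interneurons, *Lhx6*, *Sst*, *Pvalb*, *Maf*, *Nos1* and *Chodl* were lower (log2 fold changes -2.88, -3.19, -3.05, -0.45, -0.70 and -1.79) and *Tac1* and *Crhbp* (0.93) higher. The calls of *Maf*, *Nos1* and *Chodl* each depended on single libraries, with edgeR adjusted p-values of up to 0.134, 0.135 and 0.134 when 1 was left out. For *Maf* these were controls 10 and 11 and each mutant, for *Nos1* controls 2, 10 and 11 and each mutant, and for *Chodl* controls 2 and 10 and mutants 12 and 13.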

How the data were processed

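Forebrain RNA was sequenced in 7 libraries, each a pool of 2 animals, 4 *Lhx6*+/- and 3 *Lhx6*-/-. The authors trimmed 36-base single-end reads with cutadapt 1.9.1, aligned them with Bowtie2 2.2.9 to transcripts of Ensembl release 84 (GRCm38) and estimated reads per gene with RSEM 1.2.31 (versions from the submitters' processing notes). The deposited values are expected counts, not normalized, in which a read that matches several genes is shared among them. A further deposited table holds the authors' DESeq2 comparison (mean, fold change, standard error, statistic and p-values), of which only the gene symbols were used. The number of sample columns left unused was 0. Whether counting used strand is not given in the sources used here.

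Expected counts were rounded. Genes that reached 10 counts in 3 or more libraries were scaled by TMM (factors 0.976 to 1.03) and tested with edgeR 4.0.16 (quasi-likelihood F-test, no covariate, Benjamini-Hochberg over 19684 genes, threshold 0.05) in R 4.3.3. Intervals are 95% intervals of the same fit. Totals per library were 32556183 to 38068931 counts, which makes the floor of 3 counts 0.0788 to 0.0921 CPM and the SD from counting alone 10.9% to 18.0% for *Chat*. Replicates differed by more than sampling noise (chi-square per degree of freedom 10.2 to 72.6), and each was counted once. Levels per length used the union of annotated exons. Upstream sequences are those of RefSeq, matched by symbol for 8 of 8 members, without the bases that are exons of the same gene in the deposited annotation. The script was tested on simulated counts.

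The members, the lists (cholinergic lineage and trophic genes, acetylcholine handling, receptors and chaperones, and markers of striatal projection neurons, thalamus, habenula, hypothalamus, motor neurons and hindbrain, monoamine neurons, MGE-derived interneurons and cortex) and the tests were chosen with earlier results of these data known, and the lists were given no test of their own. Named were all members, *Lhx6*, the genes of the pathway lists, the called and up to 3 defining genes of each marker list, and the 5 genes (mean of at least 100 normalized counts) nearest in profile to *Chat* and to *Isl1*. *Hoxb2*, *Hoxb3*, *Hoxa2*, *En1*, *En2*, *Nwd2*, *Tph2*, *Synpo2*, *Trh*, *Avp*, *Emx1*, *Slc17a7* and *Pdyn* were named after their values were seen. A few genes of the lists are not reported here by name, though list counts, sums and medians include them. Alternatives were RLE and upper quartile normalization, no filter, a filter on all 7 libraries, DESeq2 1.42.0, limma-voom (limma 3.58.1), the run of numbers (2, 3 and 5 against 10 to 13) as a covariate, and each library left out in turn.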

Additional observations from a re-analysis of the deposited data

Results flagged for a closer look

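Among 44 cholinergic and pathway genes examined over the 4 control libraries, 2 had 1 control far from the other 3, where chance marks about 1 in 20 groups. *Slc10a4* in control 11, at 131 normalized counts, was separated from the nearest control by 0.868 of the whole control range, past Dixon's 95% critical value for 4 samples. *Chrna4* in control 3, at 1534 normalized counts, was separated by 0.872 of the range, in the direction of the mutants. Without control 11 the log2 fold change of *Slc10a4* was 1.01 (edgeR adjusted p = 0.0895), and without control 3 that of *Chrna4* was -0.69 (edgeR adjusted p = 0.00225).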

How the results depend on the processing

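*Ache* and *Ecel1* kept their direction and their call in all 14 refitted alternatives, and the number of members called was 2 in 13 of them and 3 with the run covariate, where *Slc18a3* passed (0.59). The number of genes called among all tested, 954 (585 higher and 369 lower), was 1731 (1002 and 729) with DESeq2, 2205 (1213 and 992) with the run as a covariate, and 302 to 971 (223 to 589 higher and 79 to 382 lower) with each library left out, lowest without mutant 13. The log2 fold change of *Chat* was -0.0369 with the run covariate, -1.11 within libraries 2, 3 and 5, and -0.12 to 0.43 with each library left out, and the cause was not tested. That of *Slc5a7* was -0.0347 to 0.55 with each library left out, and that of *Isl1* was -0.17 within libraries 2, 3 and 5 and 0.28 to 0.82 with each library left out. The ranges with each library left out were 0.47 to 0.86 for *Slc18a3*, 0.76 to 0.92 for *Ache*, 1.70 to 2.00 for *Ecel1* and 0.53 to 1.01 for *Slc10a4*. In the related lists the run covariate added calls for *Nkx2-1*, *Ngfr*, *Lynx1*, *Chrm2*, *Chrm3*, *Chrm4* and *Chrna2*. In the marker lists it also added *Nwd2*, *Synpo2*, *Trh* and *Emx1*. No paired analysis was possible because the columns carry a library number and no replicate number. What can be seen of *Chat* is limited by the spread between libraries (SD 21.6 on a mean of 59.3 in controls, 28.8 on 63.0 in mutants). Its counts of 31 to 84 add a smaller counting error, with an SD of 10.9% to 18.0%. For *Gbx2*, 0 to 6 counts leave the question undecided.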
